A study of Mus musculus with 12 samples.

Results

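Interferon beta and 9 genes for proteins that detect foreign or misplaced nucleic acids, or act next to those detectors, were followed in B16F10 cells, an established mouse melanoma line, labelled as knocked out for the acetyltransferase genes Ep300, Crebbp or both. The 10 genes were taken by symbol, as members of this pathway, with earlier results of these data known: Ifnb1, Ddx58 (Rigi in newer naming), Ifih1, Dhx58, Mavs, Tmem173 (Sting1 in newer naming), Tlr3, Zbp1, Adar and Eif2ak2. They are 10 of the 54752 genes in the deposited count table, and all 10 were among the 18434 genes with enough counts to be tested. The 4 groups were B16F10 cells with Ep300 and Crebbp both knocked out (double knockout), cells with Ep300 knocked out, cells with Crebbp knocked out, and control cells that the labels call wild type, with 3 RNA-seq libraries each. All were grown in DMEM with serum, and the labels name no interferon, virus, nucleic acid or other treatment for any group. The labels do not say whether a knockout line was 1 clone or a pool, or whether the 3 libraries of a group came from separate cultures. What the p-values measure is thus the spread among libraries, which may be technical.

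As background, cells carry receptors for nucleic acids that are in the wrong place. RIG-I (Ddx58) and MDA5 (Ifih1) bind double-stranded RNA in the cytosol and signal through MAVS on mitochondria, Toll-like receptor 3 (Tlr3) binds double-stranded RNA in endosomes, and STING (Tmem173) is the adaptor that the DNA sensor cGAS switches on. These routes end in transcription of Ifnb1, whose protein is secreted and acts through the interferon receptor to raise interferon-stimulated genes, several of the RNA sensors among them. Ep300 and Crebbp encode p300 and CBP, closely related lysine acetyltransferases that serve as transcriptional coactivators.

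Library totals ran from 64257251 to 85604243 counts. Counts of Ep300 itself came to 138–160 CPM (read counts scaled to library size) in double knockout cells, 77.5–94.7 CPM in Ep300 knockout cells, 89.9–111 CPM in Crebbp knockout cells and 85.5–99.2 CPM in controls. Crebbp counts came to 57.1–68.7 CPM in double knockout cells, 69.1–92.8 CPM in Ep300 knockout cells, 30.3–36.8 CPM in Crebbp knockout cells and 56.7–69.5 CPM in controls. Only the Crebbp knockout libraries were below control for the gene they were labelled for (log2 fold change -0.91 ± 0.12 SE, adjusted p = 0.000527 by edgeR's quasi-likelihood test). Ep300 did not pass the test in Ep300 knockout cells (log2 fold change -0.15 ± 0.10, adjusted p = 0.376) and was higher in double knockout cells (0.65 ± 0.10, adjusted p = 7.33e-05). Crebbp in double knockout cells did not pass the test against control (-0.02 ± 0.11, adjusted p = 0.922) and was 1.86-fold its level in Crebbp knockout cells (adjusted p = 1.85e-05). A gene-level count does not show which exons were read, so an edit that leaves the transcript in place would not register, and every group name here is that of the labels. All 8 melanocyte-lineage markers examined exceeded 1 CPM in every group. Their summed level was 6548–6716 CPM in double knockout libraries, 14356–15077 CPM in Ep300 knockout libraries, 18425–19234 CPM in Crebbp knockout libraries and 19535–21483 CPM in control libraries.

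Levels were compared as CPM after scaling by edgeR's trimmed mean of M-values. A gene was called changed when its p-value, adjusted by the Benjamini-Hochberg method over all 18434 tested genes, was under 0.05 in edgeR's quasi-likelihood test over all 12 libraries. Ifnb1 passed the filter on low counts only through the double and Ep300 knockout libraries, so it had to differ between groups, and it is left out of the counts and medians that follow. In double knockout against control, 9 of the 9 other genes were called higher, where 24.7% of all tested genes were called higher, and their median log2 fold change was 2.33 against -0.02 for all tested genes. In Ep300 knockout against control, 7 of 9 were called higher, where 7.27% of all tested genes were, with a median of 1.36 against 0.01. In Crebbp knockout against control, 3 of 9 were called higher, where 1.52% of all tested genes were, with a median of 0.27 against -0.01. That count of 3 became 0 with only the groups compared and 1 under limma-voom or a replicate block. It ran from 0 (without Crebbp knockout replicate 2) to 5 (without Crebbp knockout replicate 3) when a library was left out. Leaving out any 1 control or double knockout library, Ep300 knockout replicate 2 or Crebbp knockout replicate 1 gave a count of 1. None of the 9 was called lower in these comparisons, with 0 at an unadjusted p under 0.05 and 0 called lower by DESeq2; of all tested genes, 24.6% were called lower in double knockout, 8.83% in Ep300 knockout and 1.61% in Crebbp knockout. The 3 double knockout libraries all stood above the 3 control libraries for 9 of 9 genes (30.1% of all tested genes) and the Ep300 knockout libraries for 7 of 9 (13.8%). The Crebbp knockout libraries all stood above control for 4 of 9 (10.9% of all tested genes) and all below it for 1 of 9 (9.61%). These 3 comparisons share the same control libraries.

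Between knockouts, again over these 9 genes, double knockout cells were called higher than Ep300 knockout cells for 8 (18.0% of all tested genes), with a median log2 fold change of 1.27. Double knockout cells were called higher than Crebbp knockout cells for 9 (21.4% of all tested genes), with a median of 2.17. Ep300 knockout cells were called higher than Crebbp knockout cells for 8 (6.26% of all tested genes), with a median of 1.09.

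**Figure D1:**
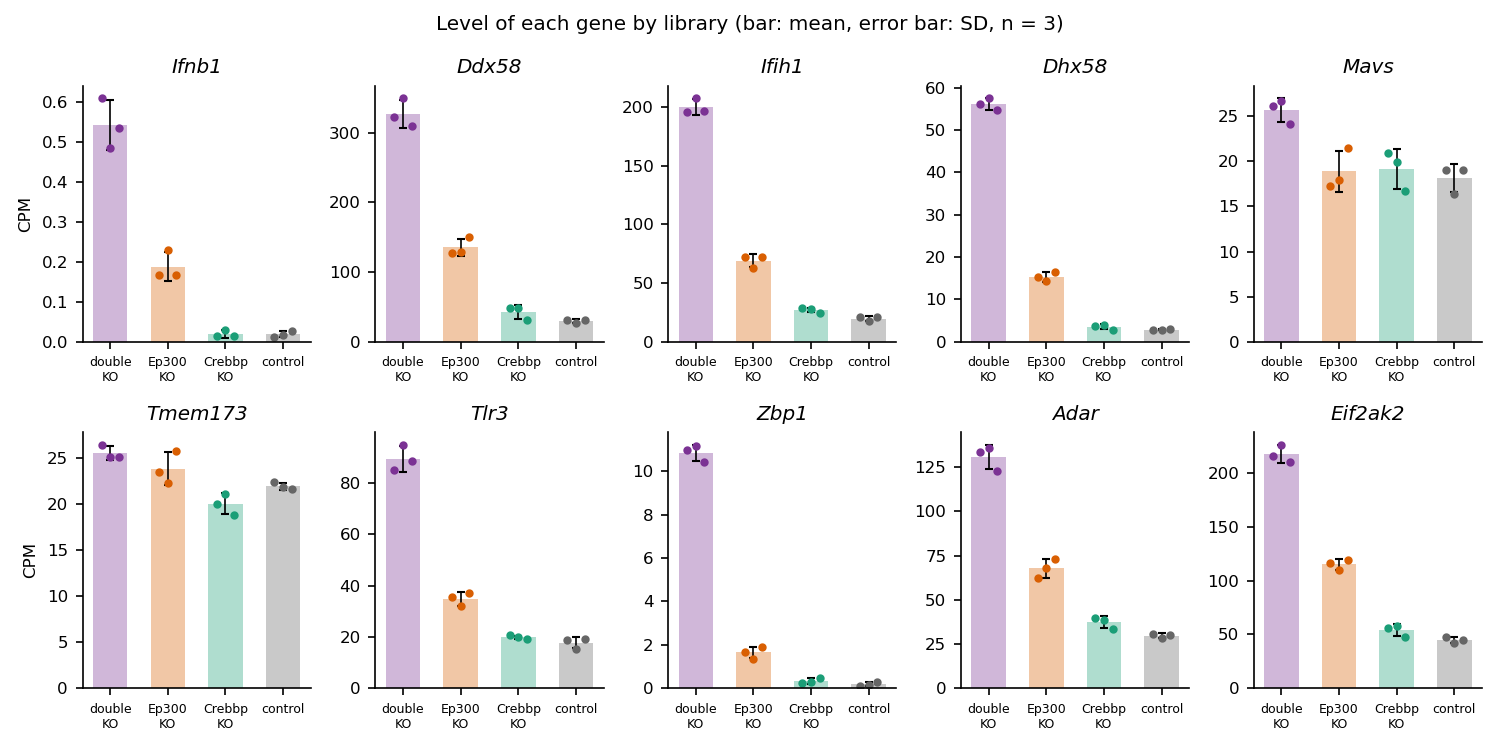
Level of each of the 10 genes in CPM (vertical axis, a separate linear scale from 0 for each gene) in double knockout, Ep300 knockout, Crebbp knockout and control cells. Points are libraries, bars are means and error bars are SD (n = 3). Mavs and Tmem173 differ by far less between groups than the other genes. Ifnb1 is drawn too, although it passed the filter on low counts only through the double and Ep300 knockout libraries.

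Ifnb1, the secreted ligand at the end of these routes, lies on the minus strand of chromosome 4 from 88522025 to 88522774 (GRCm38, GENCODE gene span). As background, the stretch just upstream of its start is a well-studied virus-inducible enhancer bound by IRF3, IRF7 and NF-kappaB. That stretch is shown because Ifnb1 is the ligand of these routes. It is given from RefSeq (GRCm38.p6, chr4:88522865-88522954, minus strand, positions -160 to -71 from the start, 5′ to 3′). Promoter positions here and below are counted from RefSeq starts, which need not be the GENCODE ones: that of Ifnb1 lies just upstream of the gene span given, and that of Tlr3 inside its span. Capitals mark 3 matches to AANNGAAA, the core letters that interferon regulatory factors recognise, and 1 match to a kappaB-like site (GGGA, any 2 bases, TTCC).
Ifnb1 upstream: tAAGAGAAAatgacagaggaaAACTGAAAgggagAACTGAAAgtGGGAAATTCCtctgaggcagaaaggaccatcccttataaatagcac

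Ifnb1 was read 56, 41 and 50 times in the double knockout libraries, 12, 19 and 14 times in the Ep300 knockout libraries, 1, 2 and 1 times in the Crebbp knockout libraries, and 1, 1 and 2 times in the control libraries. The lowest double knockout library held more than any Ep300 knockout library, and the lowest Ep300 knockout library held more than any Crebbp knockout or control library. Crebbp knockout and control libraries overlapped. As levels these were 0.543 ± 0.0627 CPM in double knockout cells, 0.188 ± 0.0366 CPM in Ep300 knockout cells, 0.0195 ± 0.00899 CPM in Crebbp knockout cells and 0.0191 ± 0.00729 CPM in controls (SD, n = 3). Even in double knockout cells Ifnb1 thus stayed under 1 CPM in every library.

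With so few counts in 2 of the groups, ratios of summed counts per effective library size are given with exact 95% intervals, which cover counting error only. The Ifnb1 ratio was 28.6 (10.9 to 106) for double knockout over control, from 147 against 4 counts, and 9.90 (3.61 to 37.9) for Ep300 knockout over control, from 45 against 4 counts. For Crebbp knockout over control it was 1.02 (0.189 to 5.45), from 4 against 4 counts, an interval that leaves differences of severalfold either way undetectable at this depth. For double knockout over Ep300 knockout it was 2.88 (2.05 to 4.12). Both of these groups passed the filter on low counts, and Ifnb1 was called higher in double knockout than in Ep300 knockout (adjusted p = 0.00181 by edgeR's quasi-likelihood test). No test is given for the comparisons with control or Crebbp knockout, since the gene entered the fit only through the libraries where it was high.

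The other interferon genes were near the floor. Of 20 listed genes for interferon alpha, epsilon, kappa, zeta, lambda and gamma, 12 had no count in any library, and none had enough counts to be tested. The 8 with a count summed to 64 counts over the double knockout libraries, 41 over the Ep300 knockout libraries, 34 over the Crebbp knockout libraries and 32 over the control libraries. Ifnz held 26 of the 64 counts in double knockout, 19 of the 41 in Ep300 knockout, 17 of the 34 in Crebbp knockout and 17 of the 32 in control libraries. Library by library, Ifnz had 8, 8 and 10 counts in double knockout, 4, 5 and 10 in Ep300 knockout, 5, 3 and 9 in Crebbp knockout and 5, 4 and 8 in control libraries. Ifna13 and Ifnk held at most 8 counts in a library and were read in all 4 groups. Ifna4, Ifna5, Ifna16, Ifnab and Ifne were read at most 4 times in a library and in no Crebbp knockout or control library. Of these, Ifna16, Ifnab and Ifne were each read in a single double knockout library, and Ifna5 had only 1 count, in Ep300 knockout replicate 2. Interferon alpha genes are near-identical copies, so reads among them may be split or lost in counting.

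The cytosolic RNA receptors come next: Ddx58 encodes RIG-I, which binds short RNA with a triphosphate end, Ifih1 encodes MDA5, which binds long double-stranded RNA, and Dhx58 encodes LGP2, a relative without the signalling domains that modulates both. Ddx58 lies on chromosome 4 from 40203773 to 40239828 and Ifih1 on chromosome 2 from 62595798 to 62646255, both on the minus strand. Their RefSeq promoters (GRCm38.p6) are shown because both hold, near the start, the interferon-stimulated response element (ISRE) in a loose form (GAAA, any 2 bases, GAAA); capitals mark the match. The first Ddx58 line, on the gene's own strand, is chr4:40239866-40239895 and holds AANNGAAA from position -59, and the second, on the opposite strand, is chr4:40239804-40239833 with its match from position 3. The Ifih1 line is chr2:62646206-62646235 on the gene's strand, with its match from position 33.
Ddx58 before the start: tctaggttcagAAACGAAActggatccccg
Ddx58 at the start: ctggccatagGAAATCGAAActgcctcagg
Ifih1 after the start: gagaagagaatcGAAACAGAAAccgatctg

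Ddx58 measured 322, 349 and 309 CPM in double knockout, 128, 129 and 149.7 CPM in Ep300 knockout, 47.8, 48.8 and 31.8 CPM in Crebbp knockout, and 31.2, 26.6 and 31.1 CPM in control libraries. No 2 groups overlapped, but Crebbp knockout replicate 3 stood just above the highest control. Ddx58 was 11.0-fold control in double knockout cells (log2 fold change 3.46 ± 0.14 SE, adjusted p = 3.32e-11) and 4.58-fold in Ep300 knockout cells (2.19 ± 0.14, adjusted p = 1.32e-08). In Crebbp knockout cells it was 1.45-fold control (0.53 ± 0.13, adjusted p = 0.0416), a call that was lost under 12 of 20 alternative settings (adjusted p 3.72e-07 to 0.175).

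Ifih1 measured 196, 208 and 196 CPM in double knockout, 72.4, 62.8 and 72.1 CPM in Ep300 knockout, 28.4, 28.3 and 24.9 CPM in Crebbp knockout, and 20.8, 17.4 and 21.3 CPM in control libraries. The 4 groups did not overlap. Ifih1 was 10.1-fold control in double knockout cells (3.33 ± 0.09, adjusted p = 3.33e-13), 3.48-fold in Ep300 knockout cells (1.80 ± 0.09, adjusted p = 8.86e-10) and 1.37-fold in Crebbp knockout cells (0.45 ± 0.09, adjusted p = 0.0109). The Crebbp knockout call of Ifih1 was lost when only those groups entered the fit (adjusted p = 0.0537) and without Crebbp knockout replicate 2 (adjusted p = 0.0563), the range over 20 alternatives being 3.16e-05 to 0.0563.

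Dhx58, on chromosome 11 from 100694884 to 100704271 (minus strand), measured 56.1, 57.6 and 54.7 CPM in double knockout, 15.3, 14.3 and 16.6 CPM in Ep300 knockout, 3.62, 4.05 and 2.86 CPM in Crebbp knockout, and 2.91, 2.87 and 2.93 CPM in control libraries. Double and Ep300 knockout stood apart from each other and from the rest, while Crebbp knockout and control overlapped. Dhx58 was 19.3-fold control in double knockout cells (4.27 ± 0.11, adjusted p = 1.25e-13) and 5.30-fold in Ep300 knockout cells (2.41 ± 0.10, adjusted p = 2.71e-10). In Crebbp knockout cells its log2 fold change was 0.27 ± 0.11 (adjusted p = 0.215). Of its exon bases, 4.31% overlap an antisense gene, Dhx58os, which had 0.114 CPM in double knockout cells and 0.0188 CPM in controls, far below Dhx58.

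The share of each receptor was also read per kilobase of exon. Dhx58 made up 19.5% ± 0.436 of the summed level of the 3 RIG-I-like receptors in double knockout cells, 14.5% ± 0.231 in Ep300 knockout cells, 10.3% ± 0.463 in Crebbp knockout cells and 11.9% ± 0.927 in controls (SD, n = 3). Ddx58 held the most in every group, with 52.6% ± 0.875 in double knockout cells, 59.3% ± 1.84 in Ep300 knockout cells, 57.6% ± 3.53 in Crebbp knockout cells and 55.9% ± 0.382 in controls. These shares were not tested.

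The adaptors had the smallest fitted changes in double knockout cells. Mavs, the mitochondrial adaptor of RIG-I and MDA5 (chromosome 2, 131234063 to 131248025, plus strand), measured 26.1, 26.7 and 24.2 CPM in double knockout, 17.3, 17.9 and 21.4 CPM in Ep300 knockout, 20.9, 19.9 and 16.7 CPM in Crebbp knockout, and 19.1, 16.4 and 19.0 CPM in control libraries. The double knockout libraries stood above the other 9, which overlapped. Mavs was 1.41-fold control in double knockout cells (0.50 ± 0.10, adjusted p = 0.000808), while Ep300 knockout cells (log2 fold change 0.05 ± 0.10, adjusted p = 0.794) and Crebbp knockout cells (0.08 ± 0.10, adjusted p = 0.735) did not pass the test.

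Tmem173, the adaptor of the cytosolic DNA route (chromosome 18, 35733679 to 35740554, minus strand), measured 26.5, 25.1 and 25.1 CPM in double knockout, 23.5, 22.3 and 25.8 CPM in Ep300 knockout, 20.1, 21.2 and 18.9 CPM in Crebbp knockout, and 22.4, 21.8 and 21.6 CPM in control libraries. It was 1.16-fold control in double knockout cells (0.22 ± 0.07, adjusted p = 0.0179). That call was lost without control replicate 3 (adjusted p = 0.0587) or double knockout replicate 1 (adjusted p = 0.0737), the range over 20 alternatives being 0.00758 to 0.0737. Tmem173 was the only gene of the 10 whose Crebbp knockout libraries all lay below control (-0.13 ± 0.07, adjusted p = 0.359), which did not pass the test. Against Crebbp knockout cells it was higher in Ep300 knockout cells (0.25 ± 0.07, adjusted p = 0.0269), a call lost under 7 of 20 alternatives (adjusted p 0.00695 to 0.0935).

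Tlr3, the endosomal receptor for double-stranded RNA (chromosome 8, 45395665 to 45411080, minus strand), measured 84.9, 94.96 and 88.5 CPM in double knockout, 35.5, 32.0 and 37.2 CPM in Ep300 knockout, 20.6, 19.9 and 19.3 CPM in Crebbp knockout, and 18.8, 15.3 and 19.2 CPM in control libraries. Tlr3 was 5.02-fold control in double knockout cells (2.33 ± 0.09, adjusted p = 1.54e-11) and 1.96-fold in Ep300 knockout cells (0.97 ± 0.09, adjusted p = 1.01e-06). In Crebbp knockout cells its log2 fold change was 0.16 ± 0.09 (adjusted p = 0.365), although the 3 libraries just cleared the controls. An antisense gene that shares 7.32% of its exon bases had no counts.

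Zbp1 encodes a sensor of left-handed (Z-form) RNA and DNA that can start necroptosis, and lies on chromosome 2 from 173206612 to 173218923 (minus strand). It measured 11.0, 11.1 and 10.4 CPM in double knockout, 1.70, 1.37 and 1.89 CPM in Ep300 knockout, 0.231, 0.299 and 0.485 CPM in Crebbp knockout, and 0.102, 0.175 and 0.297 CPM in control libraries. Those controls were 8, 10 and 22 counts. Zbp1 had the largest fitted change of the 10 genes, 56.4-fold control in double knockout cells (5.82 ± 0.25, adjusted p = 5.73e-11), and was 8.60-fold in Ep300 knockout cells (3.10 ± 0.28, adjusted p = 9.87e-07). Crebbp knockout and control overlapped (0.81 ± 0.36, adjusted p = 0.261).

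Adar encodes ADAR1, which edits adenosine to inosine in double-stranded RNA and so keeps self RNA from the sensors (chromosome 3, 89715022 to 89753446, plus strand). It measured 133, 136 and 123 CPM in double knockout, 62.3, 68.1 and 72.9 CPM in Ep300 knockout, 40.0, 38.5 and 33.7 CPM in Crebbp knockout, and 30.9, 28.3 and 30.3 CPM in control libraries. The groups did not overlap. Adar was 4.38-fold control in double knockout cells (2.13 ± 0.08, adjusted p = 1.59e-11), 2.27-fold in Ep300 knockout cells (1.18 ± 0.08, adjusted p = 4.16e-08) and 1.25-fold in Crebbp knockout cells (0.33 ± 0.08, adjusted p = 0.0401). The last call was lost under 12 of 20 alternatives (adjusted p 0.00680 to 0.154). Gene-level counts do not separate the interferon-inducible long form of ADAR1 from the constitutive short form. Chrnb2, on the other strand, shares 16.8% of the Adar exon bases and had 2.75 CPM in double knockout cells and 2.67 CPM in controls.

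Eif2ak2 encodes PKR, the double-stranded-RNA-activated kinase that stops translation by phosphorylating eIF2alpha, and lies on chromosome 17 from 78852564 to 78882573 (minus strand). It measured 216, 226 and 210.1 CPM in double knockout, 116, 109.8 and 119 CPM in Ep300 knockout, 56.4, 57.9 and 47.3 CPM in Crebbp knockout, and 47.8, 42.0 and 44.8 CPM in control libraries. Eif2ak2 was 4.84-fold control in double knockout cells (2.28 ± 0.08, adjusted p = 8.18e-12) and 2.56-fold in Ep300 knockout cells (1.36 ± 0.08, adjusted p = 8.52e-09). In Crebbp knockout cells 2 of the 3 libraries stood above control (0.26 ± 0.08, adjusted p = 0.0917). That difference passed the test without Crebbp knockout replicate 3 (adjusted p = 0.0209) and under 2 other alternatives, the range over 20 alternatives being 0.0209 to 0.322.

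The promoter letters of Tlr3, Adar and Eif2ak2 are shown to set them beside those of Ifnb1, Ddx58 and Ifih1, since a promoter of each of these 6 genes holds AANNGAAA. For Adar it is 1 of 3 RefSeq promoters, the other two holding none of the motifs searched. Capitals mark AANNGAAA in Tlr3 and Adar and the ISRE in Eif2ak2. The Tlr3 line, on the strand opposite to the gene, is chr8:45410421-45410450, with its match from position -59. The Adar line is chr3:89730736-89730765 (plus strand, position 30 from RefSeq start 3), and the Eif2ak2 line is chr17:78882535-78882564 (minus strand, position 19).
Tlr3: gtgtctaaacaAAGTGAAAgccattcactt
Adar: ccttttcaaggAAACGAAAgtgaactctgg
Eif2ak2: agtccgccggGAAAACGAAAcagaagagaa

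RefSeq promoters, running from 250 bases before to 50 after a start, were searched for 7 of the 10 genes, 9 promoters in all. Promoters on chromosome 18 were left out of the search for the 10 genes, so Tmem173 was not searched. No RefSeq promoter was found for Dhx58 or Zbp1, so these genes were not searched either. The shares over all promoters include chromosome 18. On both strands, the ISRE was found in 3 of the 9 (those of Ddx58, Ifih1 and Eif2ak2), and in 3.45% of the 32544 promoters in the table. The kappaB-like site was found in 2 of the 9 (Ifnb1 and Tlr3), and in 1.47% of all promoters. TTCNNNGAA, the gamma-activated site, was found in 2 of the 9 (Adar and Eif2ak2), and in 8.33% of all promoters. AANNGAAA, a search added after the letters were seen and contained in every ISRE match, was found in 6 of the 9 and in 23.9% of all promoters. None of the 4 motifs was found in the Mavs window, although Mavs was called higher in double knockout cells. These are letter matches only, and their relation to the levels was not tested.

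**Figure D2:**
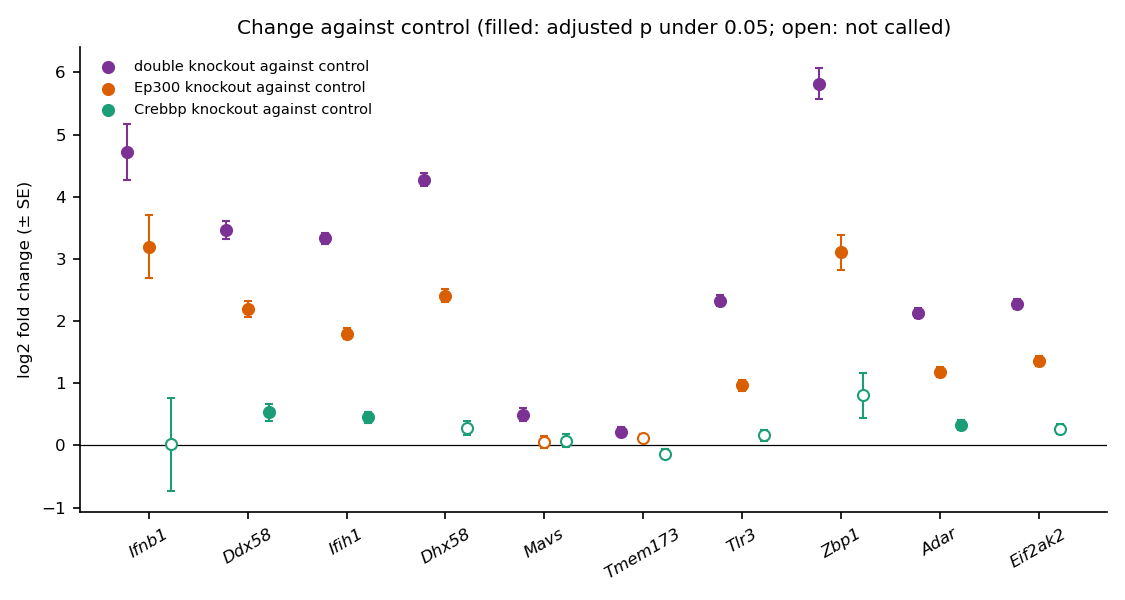
Log2 fold change against control (vertical axis, ± SE from edgeR) of each of the 10 genes (horizontal axis) in double knockout, Ep300 knockout and Crebbp knockout cells, which share the 3 control libraries. Filled points passed an adjusted p of 0.05; double knockout values lie between 0.22 and 5.82, and 7 of the 10 Crebbp knockout points are open. Ifnb1 is drawn at its fitted values, although it entered the fit only through the libraries where it was high, so its fill is not to be read as a test.

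Whether the change that goes with the Crebbp knockout label differed between cells labelled with and without Ep300 was tested directly, as the log2 fold change of double knockout over Ep300 knockout minus that of Crebbp knockout over control. The labels carry this comparison: as given above, Crebbp counts in double knockout cells were close to those of control, and Ep300 counts were higher. In double over Ep300 knockout cells, Crebbp itself was lower (log2 fold change -0.33 ± 0.11, adjusted p = 0.0331 by edgeR's quasi-likelihood test). Ep300 was higher there by the same test (0.80 ± 0.10, adjusted p = 3.02e-05). The tested difference was called above 0 for 7 of the 9 genes other than Ifnb1, where 5.33% of all tested genes were. Its median was 0.74 over these 9, against 0.00 over all tested genes. None was called below 0, where 4.96% of all tested genes were, with 0 at an unadjusted p under 0.05 and 0 by DESeq2. For Dhx58, the log2 fold change was 1.87 ± 0.09 for double over Ep300 knockout and 0.27 ± 0.11 for Crebbp knockout over control, a difference of 1.59 ± 0.14 (adjusted p = 9.08e-06). For Tlr3 it was 1.36 ± 0.09 for double over Ep300 knockout and 0.16 ± 0.09 for Crebbp knockout over control, a difference of 1.20 ± 0.12 (adjusted p = 2.54e-05). For Ifih1 the difference was 1.08 ± 0.12 (adjusted p = 5.29e-05).

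Smaller differences were called for Adar (0.62 ± 0.11, adjusted p = 0.00261) and Eif2ak2 (0.66 ± 0.11, adjusted p = 0.00182). For Zbp1 the difference was 1.91 ± 0.43 (adjusted p = 0.0107). Without control replicate 3, which held 22 of the 40 control counts of Zbp1, it was 1.39 (adjusted p = 0.113), the range over 19 alternatives being 1.69e-06 to 0.113. For Ddx58 it was 0.74 ± 0.18 (adjusted p = 0.0199), a call lost without control replicate 1 or 3, Ep300 knockout replicate 2 or double knockout replicate 2 (adjusted p up to 0.0572, the range over 19 alternatives starting at 8.53e-08). Mavs (0.37 ± 0.14, adjusted p = 0.119) and Tmem173 (0.23 ± 0.10, adjusted p = 0.162) did not pass. For Ifnb1 the fitted difference was 1.50 ± 0.87. No test of it is given, since it draws on the control and Crebbp knockout libraries, through which Ifnb1 did not pass the filter.

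**Figure D3:**
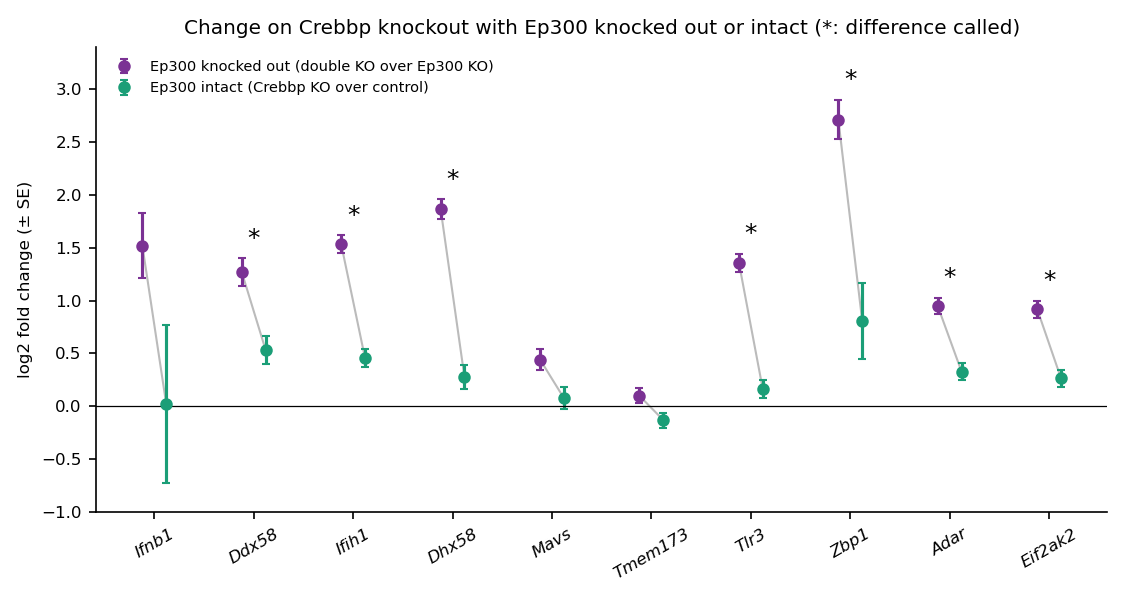
Log2 fold change on Crebbp knockout, as labelled (vertical axis, ± SE from edgeR), of each gene (horizontal axis) in cells labelled as Ep300 knockout (double over Ep300 knockout) and in cells labelled with Ep300 intact (Crebbp knockout over control). A star marks the 7 genes whose pair of values differed at an adjusted p under 0.05. Of all tested genes, 5.33% had a called difference above 0. Mavs and Tmem173 did not pass. Ifnb1 is drawn at its fitted values, and no test of its pair is given.

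Per kilobase of exon, which allows levels of different genes to be compared, the order of the 10 genes changed. In double knockout cells Ddx58 (46.3 ± 2.93 CPM per kb) and Eif2ak2 (42.5 ± 1.58) led with overlapping libraries, followed by Ifih1 (24.5 ± 0.804). Tlr3 (17.2 ± 0.979), Dhx58 (17.2 ± 0.436) and Adar (16.1 ± 0.859) overlapped, and Tmem173 (9.32 ± 0.288), Mavs (7.67 ± 0.400), Zbp1 (3.07 ± 0.109) and Ifnb1 (0.724 ± 0.0837) closed the order without overlap. In Ep300 knockout cells Eif2ak2 (22.5 ± 0.927) stood above Ddx58 (19.2 ± 1.74). Next came Tmem173, Ifih1 and Adar with overlapping libraries (means 8.35 to 8.71), then Tlr3 and Mavs, which also overlapped, and Dhx58 (4.70 ± 0.351), Zbp1 (0.468 ± 0.0751) and Ifnb1 (0.250 ± 0.0488).

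In control cells Eif2ak2 (8.77 ± 0.567 CPM per kb) was followed by the adaptors Tmem173 (8.01 ± 0.147) and Mavs (5.43 ± 0.452). Ddx58 (4.20 ± 0.372), Adar (3.68 ± 0.170) and Tlr3 (3.41 ± 0.408) came next, each overlapping its neighbour, then Ifih1 (2.43 ± 0.256) and Dhx58 (0.887 ± 0.00967). Zbp1 (0.0542 ± 0.0280) and Ifnb1 (0.0254 ± 0.00972) were lowest and overlapped. In Crebbp knockout cells the order was that of control except that Ddx58 (6.07 ± 1.35) had the higher mean over Mavs (5.73 ± 0.651), with overlapping libraries. Tmem173 thus had rank 7 in double knockout cells, against rank 2 in controls.

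**Figure D4:**
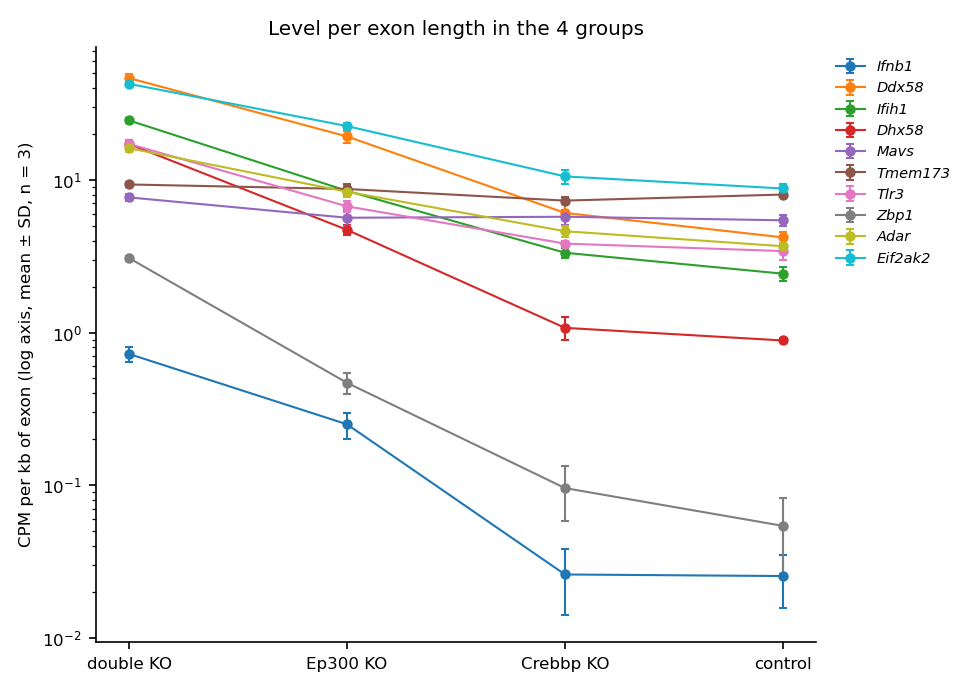
Level per kilobase of exon (vertical axis, CPM per kb, logarithmic) of each gene in double knockout, Ep300 knockout, Crebbp knockout and control cells (horizontal axis). Points are means, error bars are SD (n = 3), and lines join a gene's means; the lines of Mavs and Tmem173 run nearly flat, while Zbp1 stands at 3.07 in double knockout cells, against 0.0542 in control cells.

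Genes around the sensors were read from 4 further lists. Of 28 tested genes for adaptors, kinases and helpers of RNA sensing, 15 were called higher and 2 lower in double knockout than in control (24.7% and 24.6% of all tested genes), with a median log2 fold change of 0.26. In Ep300 knockout 8 of the 28 were called higher (7.27% of all tested genes), and 0 lower (8.83% of all tested genes; 0 of the list at an unadjusted p under 0.05, 0 by DESeq2). In Crebbp knockout 4 were called higher (1.52% of all tested genes), and 0 lower (1.61% of all tested genes; 2 of the list at an unadjusted p under 0.05, 1 by DESeq2). Irf7, the interferon-inducible regulatory factor, averaged 42.3 ± 2.18 CPM in double knockout, 7.87 ± 1.13 in Ep300 knockout, 1.46 ± 0.149 in Crebbp knockout and 0.896 ± 0.217 CPM in control cells (SD, n = 3). Ddx60, a helicase reported to act with RIG-I, averaged 108 ± 5.02 CPM in double knockout, 21.4 ± 2.73 in Ep300 knockout, 4.57 ± 0.617 in Crebbp knockout and 2.55 ± 0.234 CPM in control cells. Both passed the test in all 3 comparisons with control, as did Trim25, a ubiquitin ligase of the RIG-I route (log2 fold change 2.32 ± 0.08 in double, 1.59 ± 0.08 in Ep300 and 0.48 ± 0.07 in Crebbp knockout cells). Rnf125, a ubiquitin ligase that acts on RIG-I, was the fourth gene called in Crebbp knockout (1.40 ± 0.29, adjusted p = 0.0175) and is named because of that value.

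Of 18 tested genes of cytosolic DNA sensing, 10 were called higher and 6 lower in double knockout than in control (24.7% and 24.6% of all tested genes), with a median of 0.25. In Ep300 knockout 5 were called higher and 1 lower (7.27% and 8.83% of all tested genes). In Crebbp knockout, where 1.52% of all tested genes were called higher and 1.61% lower, 0 passed in either direction by edgeR's quasi-likelihood test (3 at an unadjusted p under 0.05, 1 by DESeq2). Ifi204, an interferon-inducible DNA-binding protein, averaged 28.8 ± 1.08 CPM in double knockout, 9.23 ± 0.262 in Ep300 knockout, 0.879 ± 0.149 in Crebbp knockout and 1.00 ± 0.165 CPM in control cells (SD, n = 3). Samhd1, an enzyme that degrades nucleotides and limits viral DNA synthesis, was called higher in double knockout (log2 fold change 1.35 ± 0.10) and in Ep300 knockout (0.80 ± 0.09). Pycard, the inflammasome adaptor ASC, went the other way, with 3.73 ± 0.280 CPM in double knockout, 8.56 ± 0.841 in Ep300 knockout, 9.94 ± 1.50 in Crebbp knockout and 10.8 ± 0.857 CPM in control cells (-1.54 ± 0.12 in double knockout, adjusted p = 5.48e-08). Trex1 was listed with 0 counts in all 12 libraries. Its overlap with other genes was not examined, so 0 counts need not mean absent RNA.

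Of 7 tested genes for endosomal receptors and their helpers, 4 were called higher and 1 lower in double knockout than in control (24.7% and 24.6% of all tested genes), with a median of 0.23, and 1 was called higher and 1 lower in Ep300 knockout (7.27% and 8.83%). In Crebbp knockout, where 1.52% of all tested genes were called higher and 1.61% lower, 0 of the 7 passed by edgeR's quasi-likelihood test (0 at an unadjusted p under 0.05, 0 by DESeq2). With so few genes and such low shares, that 0 says little about the list. Myd88, the adaptor of most Toll-like receptors but not of Tlr3, averaged 13.6 ± 1.08 CPM in double knockout, 8.90 ± 0.301 in Ep300 knockout, 5.62 ± 0.397 in Crebbp knockout and 5.68 ± 0.551 CPM in control cells. Irak1, a kinase downstream of Myd88 (log2 fold change 0.60 ± 0.07), and Unc93b1, which carries nucleic acid receptors to endosomes (0.81 ± 0.10), were called higher in double knockout and did not pass in Ep300 knockout (adjusted p = 0.0599 and 0.373) or Crebbp knockout (0.531 and 0.519). Ticam1, the adaptor that Tlr3 does use, was called higher in double knockout cells (0.26 ± 0.10, adjusted p = 0.0393); it belongs to the RNA-sensing list and is named here for its link to Tlr3.

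Of 19 tested genes for double-stranded RNA binding, eIF2 kinases and cell death partners, 7 were called higher and 5 lower in double knockout than in control (24.7% and 24.6% of all tested genes), with a median of 0.06. In Ep300 knockout 2 were called higher and 1 lower (7.27% and 8.83% of all tested genes). In Crebbp knockout 1 was called lower (1.61% of all tested genes), and 0 higher (1.52% of all tested genes; 0 of the list at an unadjusted p under 0.05, 0 by DESeq2). Ppp1r15a, the subunit that reverses eIF2alpha phosphorylation, averaged 21.3 ± 0.312 CPM in double knockout, 10.6 ± 0.826 in Ep300 knockout, 9.10 ± 0.562 in Crebbp knockout and 8.28 ± 0.998 CPM in control cells. Mlkl, the executor of necroptosis, was called higher in double knockout (0.53 ± 0.06) and Ep300 knockout (0.35 ± 0.06) and lower in Crebbp knockout (-0.31 ± 0.06, adjusted p = 0.0108). Ripk1, a kinase that meets Zbp1 through a shared motif, was called higher in double knockout cells (0.60 ± 0.07).

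**Figure D5:**
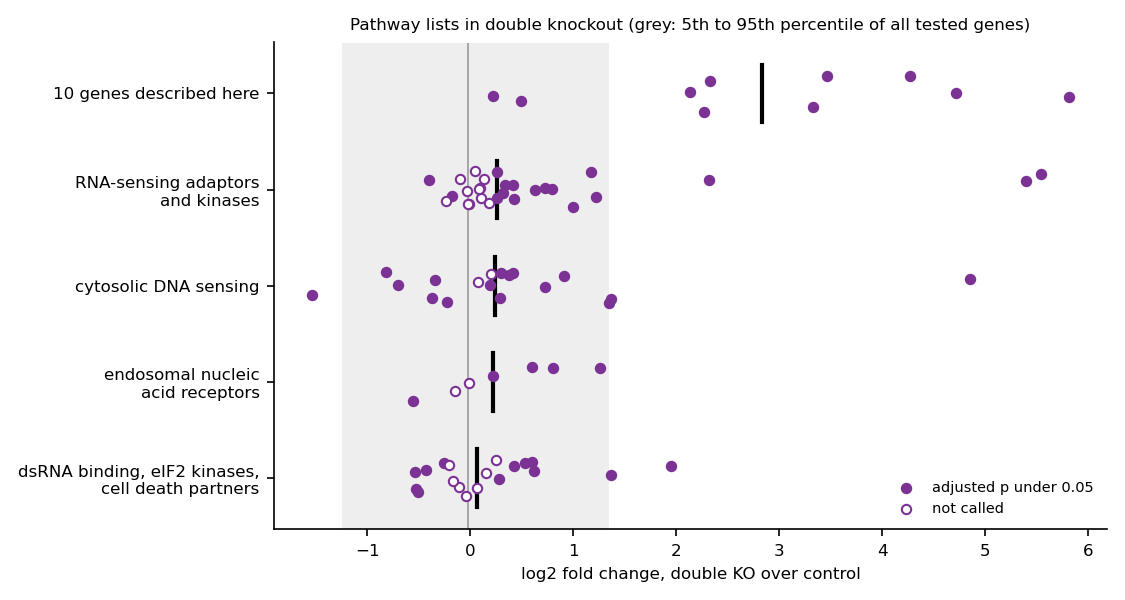
Log2 fold change of double knockout over control (horizontal axis) for the 10 genes described here and the tested genes of 4 related lists (rows). Filled points passed an adjusted p of 0.05, black bars are list medians, and grey spans the range from the 5th to the 95th percentile of all tested genes (-1.24 to 1.34); the median of the 10 genes is 2.83 (2.33 without Ifnb1), and the list medians run from 0.06 to 0.26.

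Like patterns were sought among 10746 tested genes averaging 1 CPM or more, with unnamed, predicted and clone-named genes left out. For each gene, the 3 genes most like it were found by the root-mean-square difference of centred log2 CPM over the 4 group means. For Ifnb1 these were Rnf213 (0.10), Oas1b (0.14) and Ifit1bl2 (0.15). These Ifnb1 values depend on the prior count of 2 used for log2 CPM, since Ifnb1 had only 1 or 2 counts in each Crebbp knockout and control library. The fitted log2 fold changes, which do not use that prior count of 2, were less alike. In double knockout over control they were 4.72 for Ifnb1, which rests on 4 control counts, and 3.77 for Rnf213. For Dhx58 the most like genes were Ifit1bl2 (0.10), Isg20 (0.12) and Helz2 (0.12). For Ddx58 they were Oas1g (0.09), Trim34a (0.10) and Parp10 (0.10), and for Ifih1 they were Mcub (0.06), Parp10 (0.06) and Samd9l (0.08). Zbp1 was nearest to Irf7 (0.10), Ddx60 (0.16) and Trim30d (0.23), and Tlr3 to Mx1 (0.06), Tgfb1 (0.08) and Herc6 (0.08). Adar was nearest to Plekha4, Hcfc1r1 and H2-T22 (0.05 to 0.06), and Eif2ak2 to Zfp185, Ltbp4 and Mmp11 (0.02 to 0.06). The flatter profiles of Mavs (Fkbp15, Ago1 and Rb1) and Tmem173 (Slc25a25, Rnf41 and Nfx1) had neighbours at 0.01.

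Immune cells, a rich source of these sensors in tissues, were checked through 8 markers. In every group Cd68 alone exceeded 1 CPM, with means of 6.18 CPM in double knockout, 3.47 CPM in Ep300 knockout, 1.67 CPM in Crebbp knockout and 1.87 CPM in control cells, and it was called higher in double knockout (log2 fold change 1.73 ± 0.13, adjusted p = 5.48e-08). The summed level of the 8 markers was 5.54–6.77 CPM in double knockout, 3.29–3.86 CPM in Ep300 knockout, 1.52–1.90 CPM in Crebbp knockout and 1.73–2.19 CPM in control libraries. Ptprc, the marker of all white blood cells, had 0 counts in double knockout and control libraries, and Adgre1 and Siglech had 0 in all 12. Itgam and Cd3e had at most 1 count in a group, and Csf1r had 16 in double knockout against 9 in control libraries. No endothelial or epithelial marker exceeded 1 CPM in a group mean. The 5 fibroblast markers summed to 12.7–13.8 CPM in double knockout, 14.5–19.4 CPM in Ep300 knockout, 8.54–12.3 CPM in Crebbp knockout and 6.37–8.14 CPM in control libraries, and 2 exceeded 1 CPM in double and Ep300 knockout and 3 in Crebbp knockout and control cells. Col1a1 was higher in double knockout (3.13-fold control, adjusted p = 1.32e-06), Ep300 knockout (5.30-fold, adjusted p = 6.09e-08) and Crebbp knockout (1.63-fold, adjusted p = 0.0426). Pdgfra was higher in double knockout cells (3.26-fold control, adjusted p = 2.24e-06), while Col1a2 was lower there (log2 fold change -3.18 ± 0.21) and in Ep300 knockout cells (-2.30 ± 0.20). Dcn and Lum had at most 2 counts in a group. In double over Ep300 knockout cells, Cd68 was higher (log2 fold change 0.83 ± 0.13, adjusted p = 0.000184 by edgeR's quasi-likelihood test). By the same test Pdgfra was also higher there (1.32 ± 0.18, adjusted p = 5.92e-05). Col1a1 (-0.76 ± 0.15, adjusted p = 0.00168) and Col1a2 (-0.88 ± 0.24, adjusted p = 0.0106) were lower there. In Ep300 knockout against control, Cd68 was higher by that test (0.90 ± 0.14, adjusted p = 0.000225), and Pdgfra did not pass it (0.38 ± 0.19, adjusted p = 0.225). The part of Cd68, Col1a1 and Pdgfra, each called higher in double knockout than in control, in the results above was not tested. In bulk RNA, fewer cells of a kind and less RNA per cell cannot be told apart.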

How the data were processed

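The 12 B16F10 libraries, 3 per group, were made for RNA-seq with a stranded mRNA kit, per the labels' protocols. The authors deposited whole-number counts of reads per Ensembl gene for all libraries in a table. The submitters' processing notes name bcl2fastq, HISAT2, HTSeq and the mm10 build; no version, strand setting or annotation release is given in the sources used here. Counting by strand therefore cannot be taken as given, and genes that overlap on opposite strands may share reads. Of 54752 genes, 54723 were named from GENCODE M21, which also gave coordinates and exon lengths; the 29 others held at most 0.0378 per mille of a library.

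Counts were filtered with filterByExpr, leaving 18434 genes, scaled by the trimmed mean of M-values and fitted over all 12 libraries as 4 group means with edgeR 4.0.16 (R 4.3.3), robust quasi-likelihood F tests and Benjamini-Hochberg adjustment over all 18434 genes at a threshold of 0.05. The standard error of a log2 fold change was its size over the square root of F. The biological coefficient of variation was 9.46%. Library totals of 64257251 to 85604243 counts set the precision, and a gene with few counts, such as Ifnb1, is limited by counting error. The code was tested on simulated data.

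Named were all 10 genes, the targeted genes, the 3 list members with the smallest adjusted p in double knockout against control, each listed interferon gene with a count, and the 3 most like genes; other names are marked where they appear. The members and lists were chosen with earlier results of these data known. Alternatives were DESeq2 1.42.0, limma-voom (limma 3.58.1), other size factors, no filter, a filter at 1 CPM in 3 libraries, length and GC offsets, a replicate block, only the groups compared, and each library left out. Replicate numbers did not pair the libraries, and no library pair agreed within sampling noise. Promoters are RefSeq's.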

Additional observations from a re-analysis of the deposited data

Results flagged for a closer look

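The change that goes with the Crebbp knockout label differed between cells labelled as Ep300 knockout and cells labelled with Ep300 intact for 7 of the 9 genes other than Ifnb1, by a test of the difference itself (edgeR's quasi-likelihood test of the interaction, adjusted over all tested genes). The log2 difference, double over Ep300 knockout minus Crebbp knockout over control, was 1.91 for Zbp1, 1.59 for Dhx58, 1.20 for Tlr3, 1.08 for Ifih1, 0.74 for Ddx58, 0.66 for Eif2ak2 and 0.62 for Adar. Among all tested genes, 5.33% had a called difference above 0. The calls of Ddx58 and Zbp1 rest on particular libraries, as given with their values above.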

How the results depend on the processing

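Over 20 alternative settings, 1381 values of the 10 genes were recomputed: 1326 kept their direction and side of the threshold, 40 fell short of it, 6 newly passed it and 9 changed sign. Sign changes were all on leaving out a library, and none was of a called gene. With libraries left out, Mavs ran from -0.048 to 0.11 in Ep300 knockout against control and from -0.12 to 0.045 in Ep300 against Crebbp knockout, and Ifnb1 from -0.37 to 0.36 in Crebbp knockout against control (log2 fold change). The count of genes called higher in Crebbp knockout against control, 3, became 1 under limma-voom, 1 with a replicate block and 0 with only the groups compared, and ran from 0 to 5 when libraries were left out. Leaving out Crebbp knockout replicate 3 gave 5, leaving out its replicate 2 gave 0, and leaving out any 1 control or double knockout library gave 1. The cause was not tested. Under DESeq2, DNA-sensing genes called lower in Ep300 knockout became 2 and endosomal genes called higher became 2. In Crebbp knockout, RNA-sensing genes called lower became 1 and DNA-sensing genes called higher became 1. The count for the interaction ran from 5 to 8, and that for double knockout against control from 9 to 10 with Ifnb1 included, when libraries were left out. Genes called among all tested in Crebbp knockout against control, 577, became 1279 under DESeq2, 1270 with no filter, 1131 with length and GC offsets, 321 with the replicate block and 257 with only the groups compared, and ran from 214 to 774 without a library. Called interactions among all genes, 1897, ran from 1119 to 2861. Ifnb1 has no value at 1 CPM in 3 libraries. Of 18 pairs of libraries with the same replicate number, 1 had deviations correlated above 0.1, so the numbers were not taken to pair them; under the block the other 6 counts of the 10 genes kept within 1.5 times. Depth limits Ifnb1 and Zbp1 in control and Crebbp knockout cells.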
